A study of Mus musculus with 12 samples.

Results

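The genes described here are 10 regulators that set how many mitochondria a cell builds and how their DNA is copied and read: Ppargc1a, Ppargc1b, Pprc1, Esrra, Esrrg, Nrf1, Gabpa, Tfam, Tfb2m and Polg. They were taken by symbol from the 24421 genes counted in each library, and all 10 were among the 13102 genes that entered the test. The cells were Min6, a mouse insulinoma line that makes and secretes insulin, of genotype WT per the labels. One group of 6 libraries came from cells infected with an adenovirus carrying a hairpin against Il22ra1 (sh-Il22ra1), the other 6 from cells infected with a control adenovirus (sh-ctrl). Infection lasted 48 h. Every library, controls included, came from cells given palmitate (PA) at 0.3 mM for 24 h, so neither group shows the cells without PA. The comparison asks which transcripts differ between cells given the hairpin against Il22ra1, an interleukin-22 receptor subunit, and control cells, whose samples are titled GFP. Loss of the receptor and other effects of the hairpin or the virus cannot be told apart in this design. Nothing states that the 6 samples within a group came from separate cultures; p-values therefore cover only how much these samples vary, and that variation may be technical. The number of hairpins used is not stated. In the treatment label, sh-Il22ra1 replicates 2 to 6 carry gene names ending in 2 to 6 in place of 1, and the titles decided their group.

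Mitochondrial biogenesis is driven by nuclear transcription. The coactivators PGC-1alpha (Ppargc1a), PGC-1beta (Ppargc1b) and PRC (Pprc1) bind no DNA themselves and act through transcription factors, among them the estrogen-related receptors ERRalpha (Esrra) and ERRgamma (Esrrg), nuclear respiratory factor 1 (Nrf1) and the ETS factor GABPalpha (Gabpa). These factors act on nuclear genes of the respiratory chain and on genes whose proteins enter the mitochondrion to work on its DNA: Tfam, which packages mitochondrial DNA and starts its transcription, Tfb2m, which opens the promoter for the mitochondrial RNA polymerase, and Polg, the catalytic subunit of the mitochondrial DNA polymerase. In beta cells this system carries weight because ATP made by mitochondria couples glucose to insulin release.

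Among these genes, Esrra and Tfb2m were higher in sh-Il22ra1, Polg was lower, and Tfam, the usual marker of the programme, did not pass the test. The promoters of these 4 are shown. Each runs 5′ to 3′ from 250 bases before to 50 bases after the start, taken from RefSeq on GRCm38.p6, with matches to the searched motifs in capitals:
Esrra, chr19:6921759-6922058, minus strand: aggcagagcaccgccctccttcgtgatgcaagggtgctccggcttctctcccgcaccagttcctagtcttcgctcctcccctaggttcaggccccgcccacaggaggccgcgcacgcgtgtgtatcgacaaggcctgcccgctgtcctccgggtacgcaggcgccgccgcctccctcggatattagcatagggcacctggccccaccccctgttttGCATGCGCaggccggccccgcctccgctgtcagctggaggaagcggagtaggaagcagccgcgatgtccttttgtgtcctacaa
Tfb2m, chr1:179546227-179546526, minus strand: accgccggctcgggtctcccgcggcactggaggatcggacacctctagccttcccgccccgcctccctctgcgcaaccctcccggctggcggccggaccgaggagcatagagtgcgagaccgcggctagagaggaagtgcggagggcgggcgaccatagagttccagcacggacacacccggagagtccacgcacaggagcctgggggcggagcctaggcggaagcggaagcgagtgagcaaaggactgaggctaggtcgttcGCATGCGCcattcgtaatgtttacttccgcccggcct
Polg, chr7:79466224-79466523, minus strand: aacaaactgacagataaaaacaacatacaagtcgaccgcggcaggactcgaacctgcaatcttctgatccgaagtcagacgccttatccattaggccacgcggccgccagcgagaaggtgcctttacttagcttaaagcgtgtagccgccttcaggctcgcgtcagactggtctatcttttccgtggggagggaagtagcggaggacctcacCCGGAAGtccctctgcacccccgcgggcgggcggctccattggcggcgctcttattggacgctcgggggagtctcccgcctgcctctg
Tfam, chr10:71237995-71238294, minus strand: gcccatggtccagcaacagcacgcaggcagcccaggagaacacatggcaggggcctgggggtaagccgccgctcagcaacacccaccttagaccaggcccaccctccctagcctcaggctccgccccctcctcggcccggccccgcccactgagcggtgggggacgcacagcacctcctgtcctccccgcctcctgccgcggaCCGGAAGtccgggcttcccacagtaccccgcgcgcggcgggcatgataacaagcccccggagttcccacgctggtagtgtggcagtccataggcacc
Promoters of 9 of the 10 genes were searched, 13 in all and on both strands. Ppargc1b was not searched, so the matches say nothing about it. The capitals in Polg and Tfam are CCGGAAG, the core bound by GABP and other ETS factors. It lay 38 to 32 bases before the start in Polg and 47 to 41 bases before it in Tfam. Of all 32851 promoters available, 8.86% hold it. The capitals in Esrra and Tfb2m are GCATGCGC, part of the NRF1 site, found 34 to 27 bases before the start in Esrra and 13 to 20 bases after it in Tfb2m. This string occurs in 2.71% of all promoters, and it was searched after the longer palindromic NRF1 consensus, held by 6.23% of promoters, matched none of the 13. Gabpa held CCGGAAG and the YY1 string AAGATGGCG (1.40% of promoters), while the ERR string TCAAGGTCA (0.423%), the cAMP response string TGACGTCA (1.79%) and the E-box CACGTG (7.15%) matched none of the 13. Nrf1 and Ppargc1a, also called lower in sh-Il22ra1 but not shown, held no match in any searched promoter, nor did Pprc1 and Esrrg. All 4 promoters shown hold a match, so they do not stand for the 13. No matches overlapped, and a match describes letters only.

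Reads in genes ranged from 14408576 to 15595603 in sh-Il22ra1 and from 13108494 to 15887448 in sh-ctrl libraries. Il22ra1, the targeted gene, had 1 to 4 reads in each sh-Il22ra1 library and 7 to 20 in each sh-ctrl library. sh-ctrl replicates 1 and 4 stood apart on the second principal component, which held 13.7% of the variance, and values without them are given where they bear on a regulator's result. Reads with no alignment made up 8.71% to 11.8% of sh-Il22ra1 files and 12.8% to 17.3% of sh-ctrl files. All 8 beta-cell markers were detected in both groups, and 6 of them fell, beside 26.5% of all genes tested, with a summed level of 66790 to 76280 CPM in sh-Il22ra1 and 74600 to 113600 CPM in sh-ctrl. Of 15 markers of other cell types, 7 had enough reads for the test and 6 of them fell, and the summed level of the 15, mostly the glucagon gene Gcg and the endothelial gene Plvap, was 232.6 to 245.5 CPM in sh-Il22ra1 and 349.3 to 434.1 CPM in sh-ctrl. Prss2 was at 0 in every library and Cpa1 at 0 in every sh-ctrl library. The part of these library measures in the results was not tested, and in bulk RNA fewer cells of a type and less RNA per cell cannot be told apart.

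The 10 regulators did not move as one. Esrra and Tfb2m rose, Polg, Nrf1 and Ppargc1a fell, and Ppargc1b, Pprc1, Esrrg, Gabpa and Tfam did not pass the test (edgeR, quasi-likelihood F test, Benjamini-Hochberg adjusted p under 0.05). These 5 calls in 10 genes stand beside 51.9% called among all genes tested, 25.4% higher and 26.5% lower, so the share is that of the transcriptome. The count was also 5 with DESeq2 (53.3% of all genes called), with the replicate number as a block (53.6%), with a correction for transcript length and GC content (58.6%), and without sh-ctrl replicates 1 and 4 (59.8%). The median log2 fold change of the 10 was -0.004, against -0.0042 over all genes tested. In Esrra, Polg and Nrf1, 3 of the 10, every library of one group lay outside the range of the other, which held for 28.1% of all genes tested. Levels are TMM-scaled CPM, that is reads per 1e+06 reads in genes, and fold changes are sh-Il22ra1 over sh-ctrl.

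**Figure D1:**
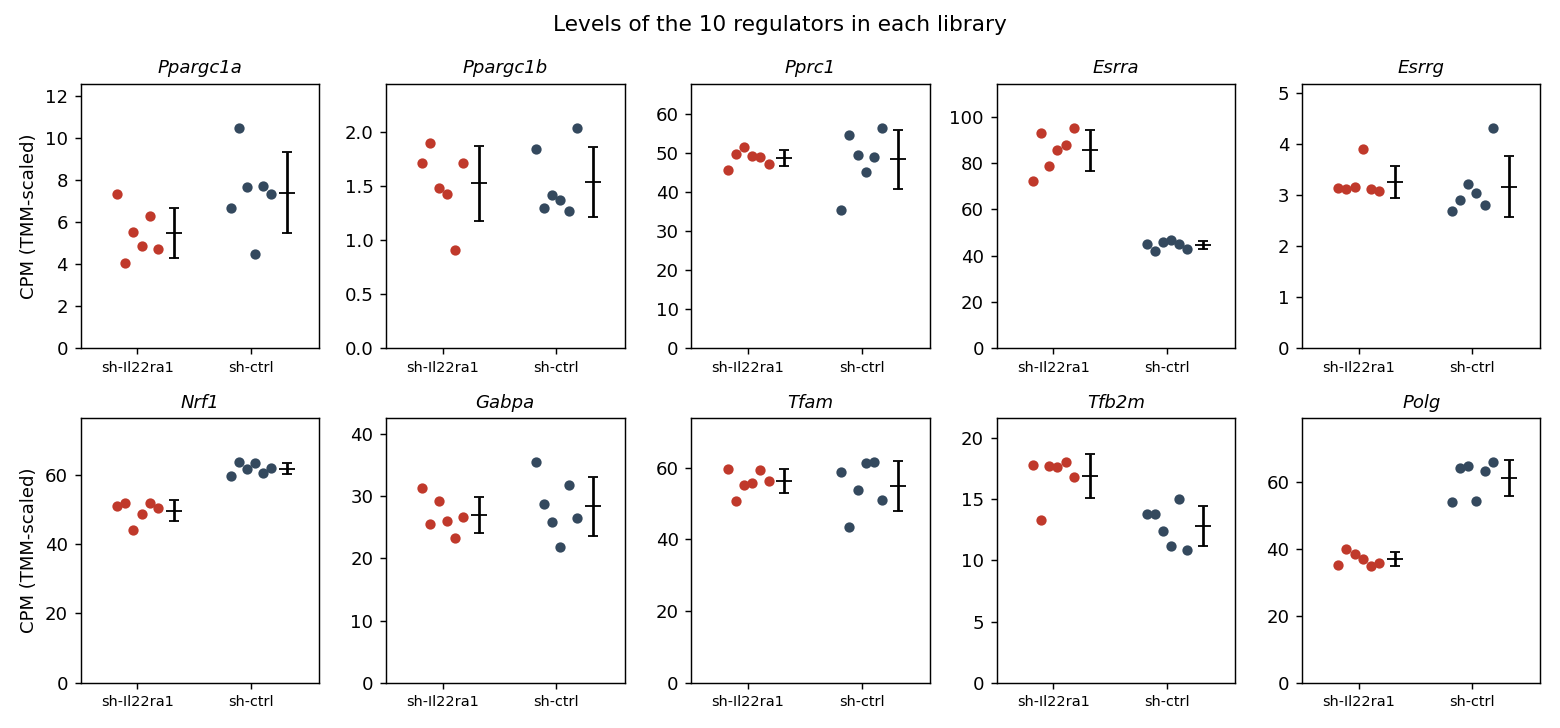
CPM of each regulator (vertical axis, starting at 0) in the 6 sh-Il22ra1 libraries (red, left) and 6 sh-ctrl libraries (dark, right), 1 point per library in order of replicate number, with mean and SD as the bar beside them. The groups are apart in Esrra, Nrf1 and Polg and overlap in the other 7 genes.

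Among the coactivators, Ppargc1a was expressed at a low level and was lower in sh-Il22ra1, with overlapping groups. Its gene spans 51454250 to 51567726 of the minus strand of chromosome 5. Its lowest, median and highest levels were 4.07, 5.21 and 7.32 CPM in sh-Il22ra1, against 4.50, 7.51 and 10.5 CPM in sh-ctrl. Of the sh-ctrl libraries, 4 lay above every sh-Il22ra1 library, while sh-ctrl replicate 4 lay below all but 1 of them. The mean was 5.47 ± 1.19 CPM in sh-Il22ra1 and 7.41 ± 1.93 CPM in sh-ctrl (SD, n = 6 each), a log2 fold change of -0.44 (SE 0.173, edgeR quasi-likelihood adjusted p = 0.0392). The call ended when any of 8 libraries was left out: sh-Il22ra1 replicate 2 (-0.37, edgeR adjusted p = 0.0942), 3 (0.0596), 4 (0.0774) or 6 (0.0734), or sh-ctrl replicate 2 (-0.32, adjusted p = 0.117), 3 (0.0647), 5 (0.0676) or 6 (0.0529). It also ended with a correction for transcript length and GC content (-0.26, SE 0.132, edgeR adjusted p = 0.0963), and without sh-ctrl replicates 1 and 4 the log2 fold change was -0.62 (SE 0.148, adjusted p = 0.000705).

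The other coactivators, which can act on the same factors, did not pass the test. Ppargc1b had 14 to 28 reads per sh-Il22ra1 library and 18 to 33 per sh-ctrl library, 1.52 ± 0.345 CPM in sh-Il22ra1 and 1.54 ± 0.322 CPM in sh-ctrl (SD, n = 6 each). Its log2 fold change of -0.02 had a 95% interval of -0.42 to 0.39, a wide one at this number of reads. Pprc1, a coactivator known to respond to serum as an early gene, was by far the most abundant of the family per length: 9.28 CPM per kb in sh-Il22ra1 and 9.20 in sh-ctrl, against 0.847 and 1.15 for Ppargc1a and 0.417 and 0.421 for Ppargc1b. The lowest, median and highest levels of Pprc1 were 45.6, 49.0 and 51.6 CPM in sh-Il22ra1, against 35.4, 49.2 and 56.4 CPM in sh-ctrl. The sh-Il22ra1 libraries lay inside the sh-ctrl range, whose lowest value was replicate 1 and whose second lowest was replicate 4, at 45.0 CPM. The log2 fold change was 0.01 (95% interval -0.16 to 0.18). It passed edgeR's test upward with the length and GC correction (0.23, SE 0.0594, adjusted p = 0.00240) and was -0.12 (SE 0.0636, edgeR adjusted p = 0.107) without sh-ctrl replicates 1 and 4, so its direction is not settled.

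Esrra, an orphan nuclear receptor that works with the PGC-1 coactivators on genes of oxidative metabolism, had the largest change of the 10. The gene, ENSMUSG00000024955.14, spans 6910977 to 6921813 of the minus strand of chromosome 19 (GRCm38). Its lowest, median and highest levels were 72.5, 86.6 and 95.3 CPM in sh-Il22ra1, against 42.1, 44.9 and 46.8 CPM in sh-ctrl. Every sh-Il22ra1 library lay far above every sh-ctrl library, with the sh-Il22ra1 libraries more spread out. The mean was 85.5 ± 8.70 CPM in sh-Il22ra1 and 44.6 ± 1.80 CPM in sh-ctrl (SD, n = 6 each), a 1.92-fold rise (log2 fold change 0.94, SE 0.0692, edgeR quasi-likelihood adjusted p = 3.27e-09). Of all genes tested, 94.3% had a smaller change in size. Over all alternatives the log2 fold change was 0.89 to 1.08, and without sh-ctrl replicates 1 and 4 it was 0.94. Trmt112, on the opposite strand, holds 1.66% of the exon bases of Esrra and had a log2 fold change of -1.02 (SE 0.0924), opposite in direction to that of Esrra; the strand setting of the counts is not given in the sources used here.

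Esrrg, the relative of Esrra that is known for oxidative maturation of beta cells, was a low transcript that did not pass the test. The lowest, median and highest Esrrg levels were 3.08, 3.14 and 3.90 CPM in sh-Il22ra1, against 2.69, 2.98 and 4.32 CPM in sh-ctrl. The groups overlapped, with 1 high library in each. The log2 fold change was 0.03 with a 95% interval of -0.25 to 0.32. Per length, Esrra stood at 38.1 CPM per kb and Esrrg at 0.615 in sh-Il22ra1, against 19.9 and 0.599 in sh-ctrl.

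Nrf1, the nuclear respiratory factor (a different gene from those of the NFE2-related factors), was lower in sh-Il22ra1. Its gene spans 30047988 to 30153458 on the plus strand of chromosome 6. Its lowest, median and highest levels were 44.0, 50.7 and 51.9 CPM in sh-Il22ra1, against 59.7, 61.7 and 63.5 CPM in sh-ctrl. The groups did not overlap, and sh-Il22ra1 replicate 3 was the lowest library. The mean was 49.6 ± 2.97 CPM in sh-Il22ra1 and 61.7 ± 1.49 CPM in sh-ctrl (SD, n = 6 each), a log2 fold change of -0.31 (SE 0.0572, edgeR quasi-likelihood adjusted p = 0.000168), between -0.37 and -0.28 over the alternatives. Of all genes tested, 58.1% had a smaller change in size.

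Gabpa, the DNA-binding subunit of GABP, did not pass the test. Gabpa had lowest, median and highest levels of 23.3, 26.3 and 31.3 CPM in sh-Il22ra1, against 21.8, 27.6 and 35.4 CPM in sh-ctrl. The sh-Il22ra1 libraries lay within the sh-ctrl range, which ran from replicate 4 at the bottom to replicate 1 at the top. The log2 fold change was -0.07 with a 95% interval of -0.27 to 0.13, 0.06 with the length and GC correction, and -0.08 without sh-ctrl replicates 1 and 4. Its gene shares 6.98% of its exon bases with Atp5j on the opposite strand, which rose (log2 fold change 0.37, SE 0.0763); whether reads of one were counted for the other was not tested.

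Of the proteins that act on mitochondrial DNA, Polg fell. The gene spans 79446231 to 79466362 of the minus strand of chromosome 7. Its lowest, median and highest levels were 35.1, 36.4 and 40.2 CPM in sh-Il22ra1, against 54.1, 63.8 and 65.9 CPM in sh-ctrl. The groups did not overlap, and the lowest sh-ctrl libraries were replicates 1 and 4. The mean was 37.0 ± 2.05 CPM in sh-Il22ra1 and 61.1 ± 5.36 CPM in sh-ctrl (SD, n = 6 each), a 1.65-fold fall (log2 fold change -0.73, SE 0.0684, edgeR quasi-likelihood adjusted p = 8.34e-08). Without sh-ctrl replicates 1 and 4 the log2 fold change was -0.82 (SE 0.0614), and with the length and GC correction it was -0.50 (SE 0.0587). Polg shares 8.57% of its exon bases with Fanci on the opposite strand, and Fanci did not pass the test (log2 fold change 0.07, SE 0.122).

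Tfb2m rose. The gene spans 179528055 to 179546267 of the minus strand of chromosome 1. Its lowest, median and highest levels were 13.3, 17.7 and 17.97 CPM in sh-Il22ra1, against 10.8, 13.1 and 14.9 CPM in sh-ctrl. Of the sh-Il22ra1 libraries, 5 lay above every sh-ctrl library and replicate 2 lay inside the sh-ctrl range. The mean was 16.9 ± 1.80 CPM in sh-Il22ra1 and 12.8 ± 1.63 CPM in sh-ctrl (SD, n = 6 each), a log2 fold change of 0.40 (SE 0.101, edgeR quasi-likelihood adjusted p = 0.00283). Over the alternatives it was 0.35 to 0.46 and stayed past the threshold in each.

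Tfam did not pass the test. Its levels ran from a lowest of 50.8 over a median of 56.1 to a highest of 59.7 CPM in sh-Il22ra1, against 43.4, 56.3 and 61.5 CPM in sh-ctrl. The sh-Il22ra1 libraries lay within the sh-ctrl range, whose lowest library was replicate 2. The mean was 56.3 ± 3.25 CPM in sh-Il22ra1 and 54.9 ± 7.05 CPM in sh-ctrl (SD, n = 6 each), and the log2 fold change of 0.04 had a 95% interval of -0.12 to 0.19.

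**Figure D2:**
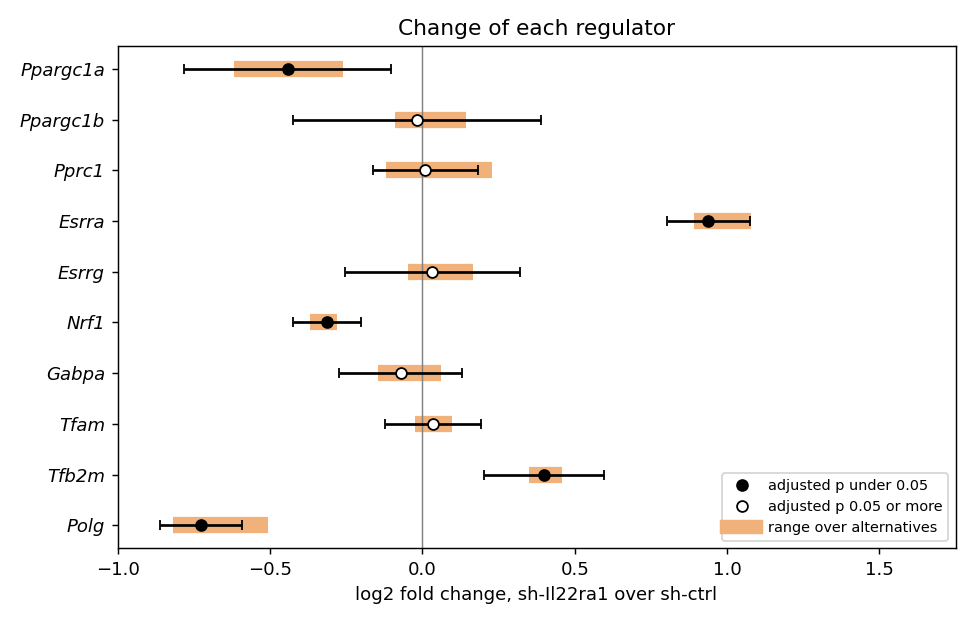
Log2 fold change, sh-Il22ra1 over sh-ctrl (horizontal axis), of each regulator with its 95% interval, filled where adjusted p was under 0.05, and the range over all alternatives as an orange band. Esrra and Tfb2m lie right of 0 and Polg and Nrf1 left of it in every alternative, while the bands of Ppargc1b, Pprc1, Esrrg, Gabpa and Tfam cross 0.

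Per kb of the reference transcript, the order of levels in sh-Il22ra1 was Esrra (38.1 CPM per kb), Nrf1 (26.4), Tfam (13.5), Pprc1 (9.28), Tfb2m (6.88), Gabpa (5.41), Polg (4.72), Ppargc1a (0.847), Esrrg (0.615) and Ppargc1b (0.417). In sh-ctrl it was Nrf1 (32.8 CPM per kb), Esrra (19.9), Tfam (13.2), Pprc1 (9.20), Polg (7.80), Gabpa (5.68), Tfb2m (5.22), Ppargc1a (1.15), Esrrg (0.599) and Ppargc1b (0.421). On this length, Esrra and Nrf1 changed places at the top, and Polg went below Gabpa and Tfb2m in sh-Il22ra1. In sh-ctrl, Pprc1 and Polg, and Gabpa and Tfb2m, differed by less than the larger of their SDs, and all other neighbours in either group by more. These places depend on the length used. Divided by all annotated exon bases, Nrf1 had 4.83 CPM per kb in sh-Il22ra1 and 6.0 in sh-ctrl, below Tfam and Pprc1 in both groups. On that scale Esrra had 19.5 in sh-Il22ra1 and 10.2 in sh-ctrl, against 12.7 and 12.4 for Tfam, so that Tfam stood first in sh-ctrl.

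The spread between libraries of a group was compared over the 45 pairs of regulators, on log2 CPM after removing each group's mean. Pprc1 and Polg had Pearson's r = 0.806 over 12 libraries (permutation p = 0.00054 within groups, adjusted p = 0.0243) and Spearman's rho = 0.874 (permutation p = 0.00115, adjusted p = 0.0517). The r was 0.715 among sh-Il22ra1 and 0.862 among sh-ctrl libraries, and 0.747 without the 2 libraries farthest out in Pprc1. Both genes were low in sh-ctrl replicates 1 and 4, which stood apart across the transcriptome. Without those 2 libraries r was 0.552 over 10 libraries (permutation p = 0.0415, adjusted p = 0.444) and rho 0.612 (permutation p = 0.0326, adjusted p = 0.245), so the call rests on them. Pprc1 with Polg was the 1 pair that passed by Pearson's r over all libraries, and none passed by Spearman's rho. Ppargc1a and Esrra ran opposite to each other in both groups, with r = -0.791 in sh-Il22ra1 and -0.779 in sh-ctrl; over 12 libraries r was -0.673 (permutation p = 0.00609, adjusted p = 0.137) and rho -0.650 (permutation p = 0.0354, adjusted p = 0.319), which did not pass the correction, and r was -0.741 without the 2 libraries farthest out in Ppargc1a and -0.739 without sh-ctrl replicates 1 and 4 (permutation p = 0.0305, adjusted p = 0.444).

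**Figure D3:**
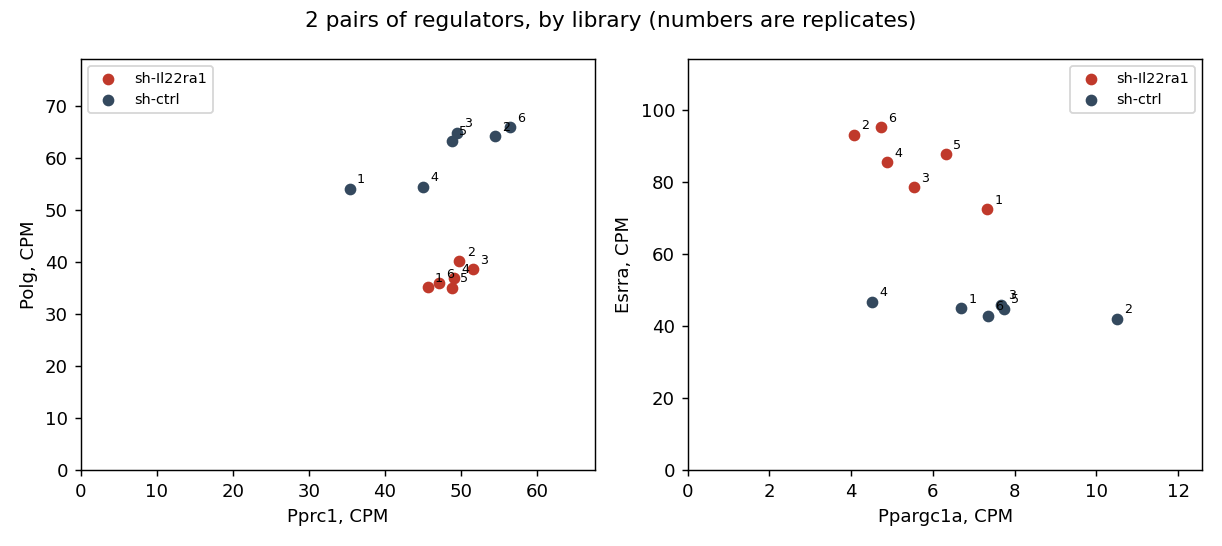
CPM of Polg against Pprc1 (left) and of Esrra against Ppargc1a (right), both axes linear and starting at 0, 1 point per library labelled with its replicate number, sh-Il22ra1 in red and sh-ctrl dark. In both panels the groups form separate bands along the vertical axis, and sh-ctrl replicates 1 and 4 lie low in both Pprc1 and Polg.

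Over 10290 genes averaging at least 5 CPM, the gene whose deviations over the 12 libraries were most like those of a regulator was named for each of the 8 regulators at that level, as a description. For Ppargc1a it was the tRNA exporter gene Xpot (r = 0.969), for Pprc1 the syntaxin-binding gene Stxbp5 (0.969), for Esrra the calmodulin gene Calm3 (0.929) and for Nrf1 the F-box gene Fbxo27 (0.922). For Gabpa it was Acsl4, a long-chain acyl-CoA synthetase (0.950), for Tfam the medium-chain acyl-CoA dehydrogenase gene Acadm (0.966), for Polg the Wnt pathway gene Apc2 (0.955) and for Tfb2m the kinetochore gene Zwilch (0.920). Each was picked as the highest r among these genes, so a high value was built in. Without sh-ctrl replicates 1 and 4 the 8 values of r ran from 0.840 for Stxbp5 to 0.955 for Acadm. Those values use 10 of the same 12 libraries and are no separate check. The difference between groups was another matter: Xpot had a log2 fold change of 0.32 where Ppargc1a had -0.44 and Calm3 had -0.02 where Esrra had 0.94. Zwilch (0.40) was like Tfb2m and Fbxo27 (-0.46) fell as Nrf1 did. Values also differed between Stxbp5 (-0.30) and Pprc1 (0.01), and between Acsl4 (-0.37) and Gabpa (-0.07). The same was so for Acadm (0.21) and Tfam (0.04), and for Apc2 (-0.19) and Polg (-0.73).

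Of the transcription factor partners and nuclear receptors of the system, 16 of 18 listed genes were tested: 3 rose, 7 fell and 6 did not pass, with a median log2 fold change of -0.13. The share called was 62.5%, near the 51.9% over all genes tested. Receptors that share coactivators with the ERRs went both ways. Mef2d, a muscle-type factor upstream of Ppargc1a, fell to 33.5 ± 3.46 CPM in sh-Il22ra1, against 80.3 ± 18.2 CPM in sh-ctrl (SD, n = 6 each; log2 fold change -1.26). The fatty acid receptors Pparg (-1.10) and Ppard (-0.88) and the retinoid X receptor gene Rxra (-0.44) fell, while Rxrb (0.56) and the thyroid hormone receptor genes Thrb (0.60) and Thra (0.29) rose, with SEs of 0.0670 to 0.145 among these 7.

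Of 29 tested genes of kinases, deacetylases and cofactors that act on PGC-1, 3 rose, 8 fell and 18 did not pass, with a median log2 fold change of -0.10. The share called was 37.9%, below the 51.9% over all genes tested, and the share that fell was near the 26.5% of all genes. Of the 6 listed subunits of the AMP-activated kinase, a known activator of PGC-1alpha, 3 fell, the catalytic Prkaa1 (-0.13) and the regulatory Prkag2 (-0.04) did not pass, and Prkaa2 was not tested. Prkab1 fell to 85.5 ± 3.78 CPM in sh-Il22ra1, against 186.1 ± 10.1 CPM in sh-ctrl (SD, n = 6 each; log2 fold change -1.12, SE 0.0551). Prkab2 fell by 0.61 and Prkag1 by 0.51 on the log2 scale; Prkab2, Prkaa1 and Prkag2 are named outside the rule, after their values were seen. The CREB coactivator genes Crtc2 (-0.86) and Crtc3 (-0.65), which relay cAMP signals to the Ppargc1a promoter, fell. Nos3 (1.02), Rnf34 (0.32) and the calcineurin subunit gene Ppp3cb (0.19) rose. Exon bases shared with other genes come to 43.7% in Prkag1, 32.3% in Nos3 and 14.1% in Rnf34, so their reads are uncertain. Without sh-ctrl replicates 1 and 4, 3 rose and 16 fell, beside 59.8% of all genes called in that setting. With the length and GC correction 8 rose and 7 fell, beside 58.6% of all genes called. A share called below that of all genes therefore did not hold in every setting.

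In the list for replication, repair and packaging of mitochondrial DNA, the setting in which Polg works, 9 of 22 genes rose, 2 fell and 11 did not pass (median log2 fold change 0.11). The share called was 50%, that of all genes tested being 51.9%. Rises outnumbered falls in this list, while over all genes tested 25.4% were higher and 26.5% lower. The helicase gene Peo1, whose protein Twinkle unwinds DNA ahead of the polymerase, rose to 49.8 ± 4.55 CPM in sh-Il22ra1, against 31.99 ± 3.15 CPM in sh-ctrl (SD, n = 6 each; log2 fold change 0.64, SE 0.0786), opposite in direction to Polg. It shares 12.6% of its exon bases with Mrpl43, which rose too (0.33). The mitochondrial topoisomerase gene Top1mt (0.48), the prohibitin gene Phb (0.40) and the exonuclease gene Mgme1 (0.29) rose, and Exog and Dna2, both nucleases, fell by 0.17 each on the log2 scale. The count of 9 rises ran from 6 to 9 with 1 library left out. It was 7 with TMM scaling without Ins2, Iapp and Rn45s. With the length and GC correction it was 12, beside 58.6% of all genes called. The count of 2 falls was 1 or 0 when any sh-Il22ra1 library or sh-ctrl replicate 2, 3, 5 or 6 was left out. It was 1 with the replicate number as a block.

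Of 26 tested genes of mitochondrial transcription and RNA handling, 4 rose, 2 fell and 20 did not pass (median log2 fold change 0.03). The share called was 23.1%, below the 51.9% over all genes tested. Tfb1m, the relative of Tfb2m that methylates mitochondrial ribosomal RNA, rose (0.46, SE 0.0848), as did Fastk (0.52), Mterf4 (0.31) and Ptcd2 (0.23). Hsd17b10, a subunit of mitochondrial RNase P that is also a dehydrogenase, fell 3.66-fold, to 17.6 ± 1.21 CPM in sh-Il22ra1, against 64.7 ± 12.7 CPM in sh-ctrl (SD, n = 6 each), and Grsf1, an RNA-binding protein of mitochondrial RNA granules, fell 2.20-fold. Neighbours on the opposite strand share 26.1% of the exon bases of Fastk and 35.2% of those of Mterf4. Without sh-ctrl replicate 4 the count of falls was 4. With the length and GC correction 8 rose and 5 fell, beside 58.6% of all genes called, a smaller gap than in the main fit.

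Of 12 tested genes that act on the nucleotide supply of mitochondria, in either direction, 4 rose, 3 fell and 5 did not pass (median log2 fold change 0.11). The share called was 58.3%, near the 51.9% over all genes tested. Mpv17 (0.39), the ribonucleotide reductase subunit gene Rrm2b (0.37), Sucla2 (0.33) and Samhd1 (0.28) rose, and Abat (-0.53), the deoxyguanosine kinase gene Dguok (-0.39) and the thymidylate synthase gene Tyms (-0.32) fell, with SEs of 0.0625 to 0.127. Mpv17 shares 14.4% of its exon bases with a predicted gene on its strand.

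Nuclear genes described as targets of NRF1, GABP or ERR mostly rose: 23 of 31, with 2 falls and 6 not past the threshold, a share called of 80.6% beside the 51.9% over all genes tested and a median log2 fold change of 0.31. Most of these genes encode respiratory chain subunits, whose rise was known when the list was made, so the count is not independent of it. Sdhc (0.54), Uqcrc1 (0.42), Sdha (0.38) and the ATP synthase gene Atp5b (0.36) rose, with SEs of 0.0559 to 0.0698. Vdac1, a porin of the outer membrane (-0.30), and the citrate synthase gene Cs (-0.21) fell. Over all lists, the largest edgeR adjusted p of a gene named as risen or fallen was 0.0427. Among the counted genes, 0 symbols of mitochondrial DNA genes were found, so transcripts of mitochondrial DNA itself could not be analysed.

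**Figure D4:**
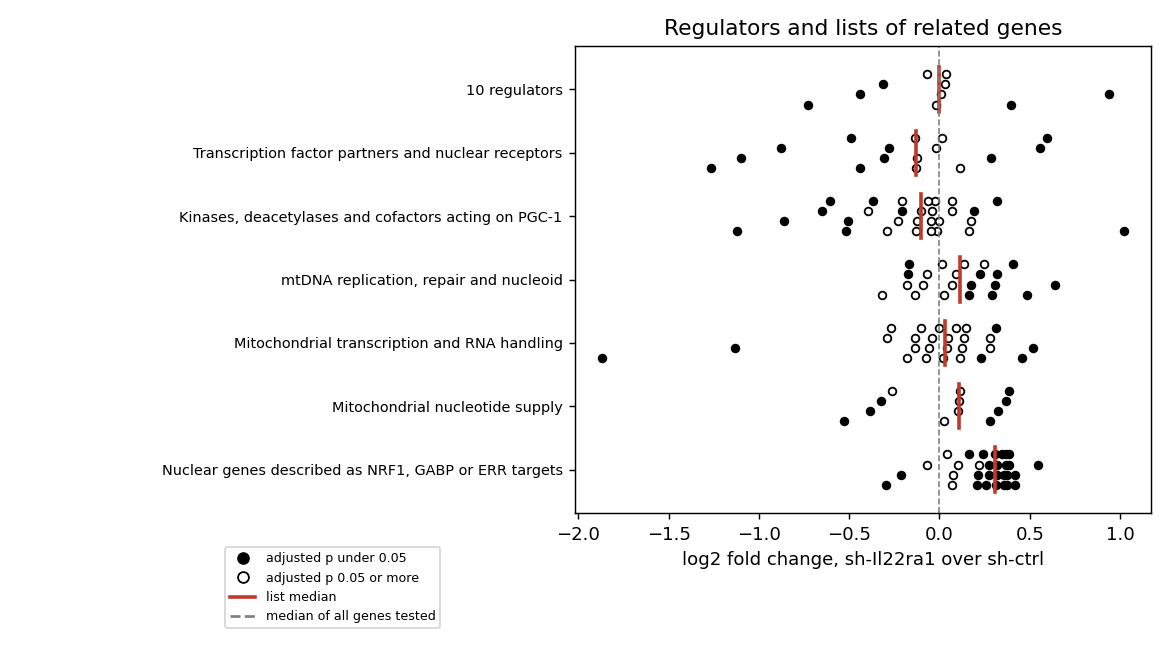
Log2 fold change, sh-Il22ra1 over sh-ctrl (horizontal axis), of the 10 regulators and of the tested genes in 6 lists, 1 point per gene, filled where adjusted p was under 0.05, with the list median in red and the median of all genes tested dashed. The regulators spread on both sides of 0 with a median of -0.004, and the list of targets lies mostly to the right, with a median of 0.31.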

How the data were processed

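The deposited sample files hold whole-number read counts per gene symbol. The submitters' processing notes name HISAT2 2.0.5, HTSeq and mm10; annotation and strand setting are not given in the sources used. A deposited series table in CPM was not used. The 5 rows of unassigned reads were left out. The fit was made in edgeR 4.0.16 (R 4.3.3) after filterByExpr (minimum count 10 and total 15) and TMM scaling, by the two-sided quasi-likelihood test with Benjamini-Hochberg adjustment over 13102 genes at 0.05; SE is the log2 fold change divided by the square root of F. The procedure was tested on simulated data in which 12846 of 13042 genes were unchanged. Of these, 0.039% were called. True log2 fold changes of 0.5 and -0.5 were called in 70% and 77.1% of genes. With so few changed genes, the simulation does not cover a comparison in which 51.9% of genes were called.

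The members and lists were chosen with earlier results of these data known. Named genes were all members, Il22ra1, up to 4 called genes of each list in each direction by p, and the gene most like each member. No label ties equal replicate numbers together, and the fit carried no block. Within a group, every pair of libraries differed beyond sampling noise (chi-square per degree of freedom at least 3.82). Gene positions, lengths and overlaps came from GENCODE M21 on GRCm38; 394 of 24421 symbols had no match. CPM per kb used the longest principal coding transcript, and log2 CPM had a prior count of 2. Permutation tests used 100000 resamples in Python 3.11.15. The alternatives were RLE, upper-quartile or TMM scaling without Ins2, Iapp and Rn45s, DESeq2 1.42.0, limma-voom (3.58.1), dropping the low-count filter or asking for a mean of 1 CPM, leaving out each library or sh-ctrl replicates 1 and 4 together, a replicate block, and spline offsets (4 degrees of freedom each) on length and GC content.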

Additional observations from a re-analysis of the deposited data

Results flagged for a closer look

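The level of 3 libraries stood apart from the other 5 of their group for 1 regulator each, among 20 groups of 6 looked at; chance flags about 1 group in 20. Esrrg was 3.90 CPM in sh-Il22ra1 replicate 4, next to 3.15 CPM in the library below it, and 4.32 CPM in sh-ctrl replicate 6, next to 3.23 CPM. Tfb2m was 13.3 CPM in sh-Il22ra1 replicate 2, next to 16.8 CPM in the library above it, and its rise passed the test with and without that library.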

How the results depend on the processing

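The calls of Esrra, Polg, Nrf1 and Tfb2m kept their direction and their side of the threshold under every alternative, and the counts of members and of all genes called stayed within 1.5 times. With the length and GC correction, Ppargc1a lost its call (-0.26), Pprc1 gained one (0.23), and Ppargc1b (0.14) and Gabpa (0.062) changed sign. In that setting 58.6% of all genes were called, 8 PGC-1 cofactor genes rose, and in the RNA handling list 8 rose and 5 fell. Without sh-ctrl replicates 1 and 4, Pprc1 (-0.12) and Esrrg (-0.046) changed sign and 16 cofactor genes fell, beside 59.8% of all genes called. Pprc1 was -0.003 in scaling without Ins2, Iapp and Rn45s and -0.005 at a mean of at least 1 CPM. Falls in the mtDNA list were 0 with no low-count filter. The causes were not tested.

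Leaving out 1 library gave -0.56 to -0.32 for Ppargc1a, -0.089 to 0.095 for Ppargc1b, -0.064 to 0.060 for Pprc1, -0.025 to 0.147 for Esrrg, -0.15 to 0.00 for Gabpa and -0.024 to 0.070 for Tfam. Falls were 0 to 2 and rises 6 to 9 in the mtDNA list, and falls were 2 to 4 in the RNA handling list. Same-numbered libraries correlated at -0.033 to 0.229 in their deviations, and 2 of 6 sh-Il22ra1 libraries correlated best with their own number, so the numbers were not taken to pair samples. With the replicate block, 53.6% of genes were called, Esrra gave 0.93 and Polg -0.72, all 10 regulators kept their calls, and 1 gene fell in the mtDNA list. All regulators passed the low-count filter, so the test planned for those below it was not needed. Ppargc1b and Esrrg had 14 to 70 reads per library, which limits their precision. The correlations and likeness without sh-ctrl replicates 1 and 4 were added after the data were seen.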
